A study of Solanum lycopersicum with 8 samples.

Results

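The genes described here lie along one stretch of tomato chromosome 7, on both sides of GOBLET (GOB, Solyc07g062840). The members were all genes with identifiers from Solyc07g062000 to Solyc07g063700 whose value reached 10 in 2 or more of the 8 libraries, with GOB itself and the neighbours LANCEOLATE (LA, Solyc07g062680) and SBP2 (Solyc07g062980) left out. This gave 125 members out of 168 identifiers in the stretch, and out of 19186 genes that passed the same filter in the whole table of 34722 genes. Of the 43 identifiers below the filter, 22 had 0 reads in every library, and none had its 4 ltm values all above or all below its 4 wild-type (WT) values.

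RNA was sequenced from shoot apical meristems dissected out of acetone-fixed greenhouse seedlings of Solanum lycopersicum. Seedlings of WT and of the late termination (ltm) mutant were taken at a stage of 4 leaves and at one of 6 leaves, which makes 4 groups with 2 libraries apiece, A and B. The labels name no cultivar and no mutated locus, and do not say whether A and B were separate pools of plants, so the errors and p-values cover the variation among these 8 libraries and possibly only its technical part. Values are normalized read counts, that is, reads per gene divided by a size factor of the library, and differences are given as log2(value + 1) of ltm minus that of WT, or of 6 minus 4 leaves, each with a standard error.

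The shoot apical meristem is the dome of dividing cells that forms leaves and, after the floral transition, flowers. GOB encodes a NAC transcription factor that marks the boundaries between the meristem and new organs and shapes the tomato compound leaf. LA encodes a TCP transcription factor that promotes leaf maturation, and SBP2 belongs to the SBP-box transcription factors. The gene table used here pairs no Solyc identifier with a symbol, so 0 of the 125 members could be matched, and the members are given by identifier with no role. That table, NCBI RefSeq for assembly SLM_r2.1, also places LA before GOB on the chromosome, with 11 protein-coding genes between them, where the deposited table lists 15 identifiers. The order along the segment below is the order of the identifiers.

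The libraries held 17895357 to 21987881 reads on genes. Both 4 leaves B libraries were remote from the others on the first principal component of all tested genes, at 44.2 and 46.4 against -38.9 to 5.57 for the other 6. Of markers listed from general knowledge by identifier alone, the 5 for meristem were all detected. Without GOB, which is one of them, their summed value at 4 leaves was 5975 to 6964 in WT and 7263 to 9571 in ltm. At 6 leaves it was 6927 to 8891 in WT and 9868 to 10148 in ltm, so the sum was higher in ltm at each stage. Within it, Solyc02g081120 (TKN2) was at 4388 to 6828 over the 8 libraries. Solyc02g083950 (WUS), at 152 to 246, and Solyc11g071380 (CLV3), at 85.6 to 331, added little, so the sum does not give their direction. The remaining gene in the sum, Solyc04g077210 (TKN1), was not looked at alone. Its part in the higher sum of ltm is therefore not told from that of TKN2. The markers for green leaf tissue, 9 of 10 detected and Solyc02g071030 at 0, summed to 16358 to 16887 in WT and 12577 to 20913 in ltm at 4 leaves, and to 13355 to 14508 and 11650 to 11731 at 6 leaves. The 2 for epidermis and trichomes summed to 4795 to 6817 over the 8 libraries, and the 3 for open flower organs to 10.1 or less. The part of these differences in the results below was not tested.

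The segment drew attention because a run of neighbouring genes in it had a large ltm against WT difference in an earlier reading of these data. The values of the members for ltm against WT are therefore a description. No p is printed for a single member in this contrast, and the counts of members past a threshold in it are no test of the segment. Changes with leaf number were not used to choose the segment and were tested.

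The highest log2 differences of ltm from WT, as the mean of both stages, were those of 4 members that flank GOB directly. They are Solyc07g062790, Solyc07g062810 and Solyc07g062820 on one side and Solyc07g062850 on the other. These 4 members and GOB were consecutive among the tested genes, and in each of them every ltm library lay above every WT library at both stages. Between them the table lists Solyc07g062800, with 1 read over the 8 libraries, and Solyc07g062830, with 0. In bulk samples a difference in the number of cells that express a gene and in its RNA per cell cannot be told apart.

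Solyc07g062820, the tested gene next to GOB on the lower side, was at 136.2 and 145.1 in the A and B libraries of WT at 4 leaves, and at 325.9 and 328.3 in those of ltm. At 6 leaves it was at 144.4 and 116.7 in WT and at 308.5 and 334.9 in ltm. The groups did not overlap, with 145.1 as the highest WT value and 308.5 as the lowest ltm value. The log2 difference of ltm from WT was 1.21 ± 0.16 at 4 leaves and 1.30 ± 0.16 at 6 leaves, and the mean of both stages was 1.26 ± 0.11, a 2.39-fold difference.

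Solyc07g062810 was at 169.1 and 258.9 in WT at 4 leaves, against 474.1 and 501.5 in ltm. At 6 leaves it was at 207.1 and 189.1 in WT and at 385.2 and 372.9 in ltm. All 4 ltm values lay above the highest WT value, that of WT 4 leaves B. The log2 difference was 1.22 ± 0.20 at 4 leaves and 0.93 ± 0.20 at 6 leaves, with a mean of 1.08 ± 0.14.

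Solyc07g062850, next to GOB on the upper side, was the most abundant of the 4. It was at 1004 and 787.2 in WT at 4 leaves against 1483 and 1165 in ltm, and at 980.8 and 829.04 in WT at 6 leaves against 1490 and 1712 in ltm. The ltm 4 leaves B library, the lowest of the ltm libraries, was close to WT 4 leaves A, the highest WT library, but did not overlap it. The log2 difference was 0.56 ± 0.17 at 4 leaves and 0.82 ± 0.17 at 6 leaves, with a mean of 0.69 ± 0.12.

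Solyc07g062790 was read only a few times per library, at 3.66, 1.04, 1.99 and 2.27 in the WT libraries (4 leaves A and B, then 6 leaves A and B) and at 8.12, 11.1, 10.4 and 9.997 in the ltm libraries in the same order. It reached the value of 10 in ltm libraries alone, so the filter kept it through the group where it was high. Its reads summed to 9 in WT and 40 in ltm, a ratio of 4.34 after scaling, with an exact 95% binomial interval of 2.07 to 10.2 that covers counting error only. Its mean log2 difference, 1.80 ± 0.47, was the least precise of these 4. It was the highest of the segment with the pseudocount of 1, and with a pseudocount of 5 it was 1.05, below the 1.23 of Solyc07g062820 and the 1.06 of Solyc07g062810.

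GOB itself had a log2 difference of 0.43 ± 0.13 at 4 leaves and 0.45 ± 0.13 at 6 leaves, smaller than those of the 4 members beside it. LA, with 12 tested genes between it and GOB, was at -0.39 ± 0.10 in the mean of both stages. In LA every ltm library lay below every WT library, and SBP2 was at -0.25 ± 0.45 in that mean.

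**Figure D1:**
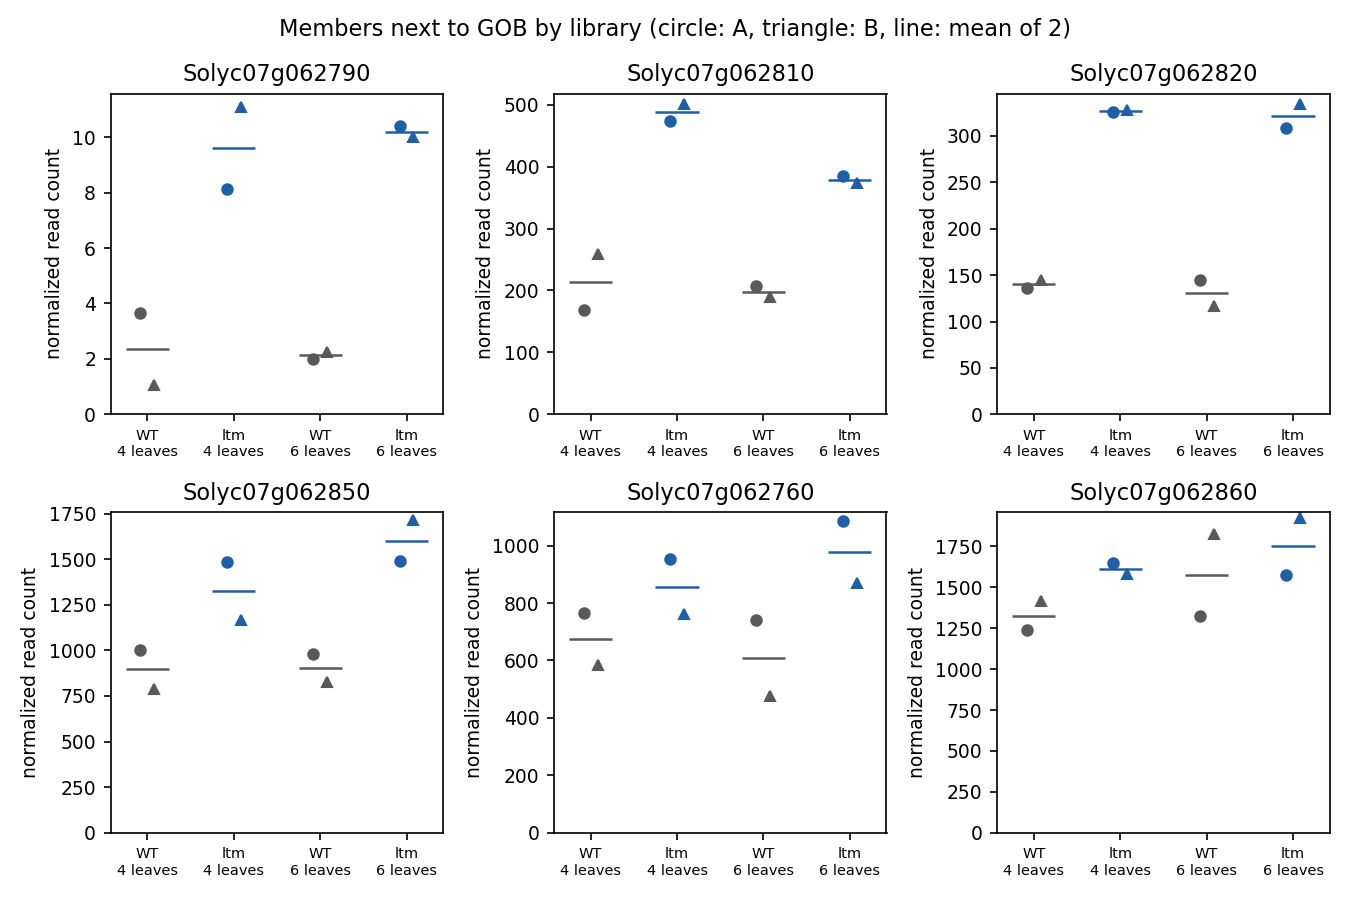
Normalized read count (vertical axes, from 0) of 6 members near GOB in each library, grouped by genotype and stage; circles are A libraries, triangles B libraries and lines the mean of 2. In Solyc07g062790, Solyc07g062810, Solyc07g062820 and Solyc07g062850 all ltm libraries lie above all WT libraries, while in Solyc07g062760 and Solyc07g062860 the genotypes overlap over the 8 libraries.

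The next tested genes on either side had smaller differences. Going down from Solyc07g062790, Solyc07g062780 had a mean log2 difference of 0.01 ± 0.08 and Solyc07g062770 of 0.10 ± 0.08. Going up from Solyc07g062850, Solyc07g062860 was at 0.22 ± 0.12, Solyc07g062870 at 0.06 ± 0.10, Solyc07g062880 at -0.11 ± 0.10 and Solyc07g062890 at -0.16 ± 0.19. In these 6 members the WT and ltm libraries overlapped over the 8 libraries. At 4 leaves alone ltm lay above WT in Solyc07g062770, Solyc07g062780 and Solyc07g062860. At 6 leaves alone ltm lay below WT in Solyc07g062880 and Solyc07g062890. Of all tested genes, 23.7% at 4 leaves and 44.4% at 6 leaves were apart in either direction. With 1 library left out in turn, the difference went from 0.11 to 0.34 in Solyc07g062860, the lowest without WT 6 leaves A and the highest without WT 6 leaves B. Its direction turned in Solyc07g062780 (-0.040 without WT 6 leaves A and -0.011 without WT 4 leaves B), in Solyc07g062870 (-0.020 without ltm 4 leaves B and -0.0021 without ltm 6 leaves A) and in Solyc07g062890 (0.0089 without WT 4 leaves B).

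Solyc07g062860 was at 1237 and 1415 in WT against 1646 and 1583 in ltm at 4 leaves, and at 1327 and 1825 against 1577 and 1925 at 6 leaves. Its genotypes were apart at 4 leaves and overlapped at 6 leaves, where WT 6 leaves B was high. Solyc07g062760, named after its values were seen, lay beyond Solyc07g062770 and Solyc07g062780. It was at 765.8 and 583.6 in WT against 953.3 and 760.4 in ltm at 4 leaves, and at 739.9 and 476.8 against 1086 and 868.7 at 6 leaves. Its mean log2 difference was 0.53 ± 0.17, with an overlap at 4 leaves of WT A and ltm B.

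**Figure D2:**
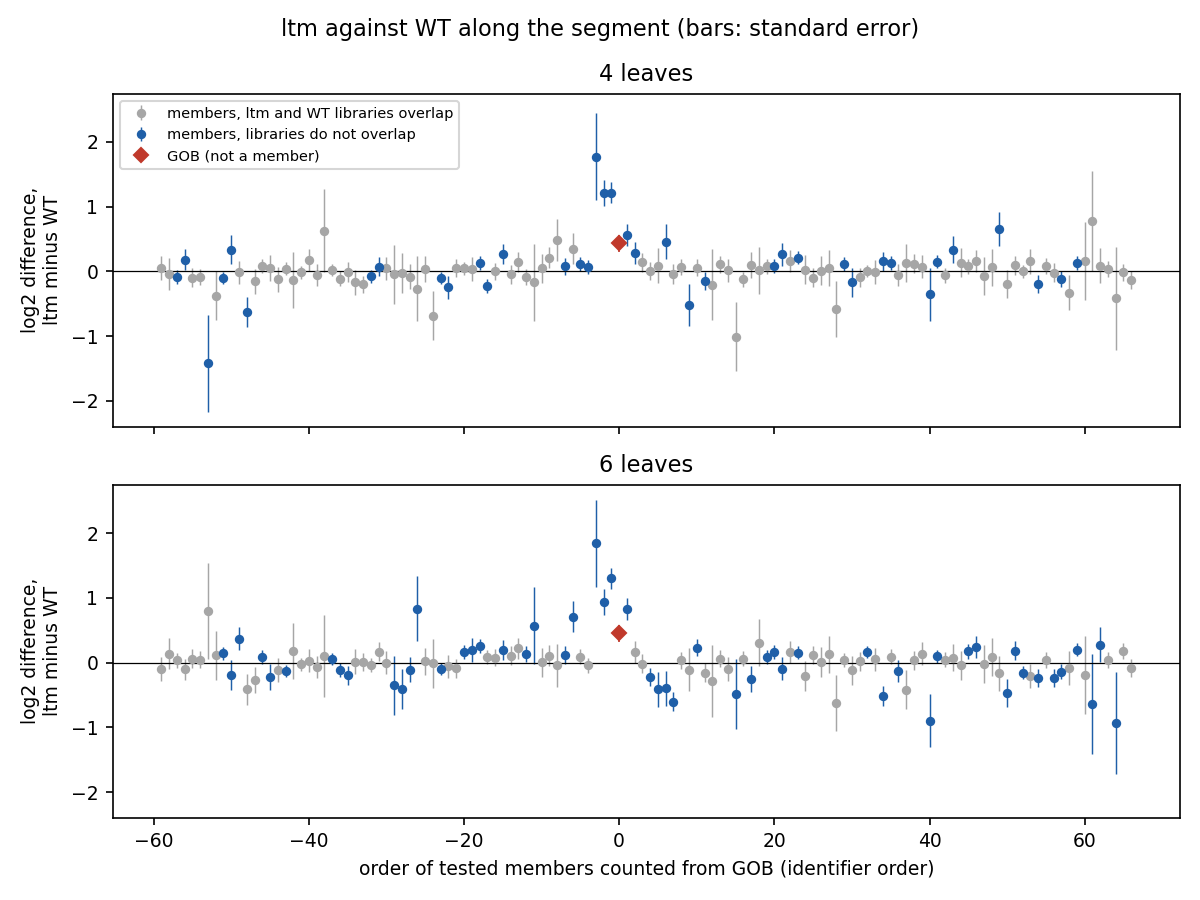
Log2 difference of ltm from WT (vertical axes) at 4 leaves (upper panel) and 6 leaves (lower panel) for the 125 members in identifier order counted from GOB (horizontal axis); bars are standard errors, blue points have WT and ltm libraries that do not overlap at that stage, and the red diamond is GOB. Solyc07g062790, Solyc07g062810 and Solyc07g062820 are the highest points in both panels, with Solyc07g062820 at 1.21 and 1.30. Solyc07g062850, at 0.56 and 0.82, lies within the range of the members farther from GOB. Outside the 10 nearest members that range is -1.42 to 0.78 at 4 leaves and -0.93 to 0.83 at 6 leaves.

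Over the whole segment, 9 of 125 members, 7.20%, had 4 ltm values all on one side of the 4 WT values, 8 above and 1 below. Over all tested genes the share was 5.96%, with 3.55% above and 2.41% below. Nothing is read from this, since the contrast was used to choose the segment. The count moved with single libraries. It was 14 without WT 4 leaves A, 14 without WT 4 leaves B and 14 without ltm 4 leaves B, and 21 without both B libraries at 4 leaves, while the count over all tested genes went from 1144 with all libraries to 1663, 2158, 2920 and 3968. The 5 tested members nearest to GOB on each side held 4 of the 9, and the other 115 members held 5, a share of 4.35%.

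These 5 members differed by less than those next to GOB. Solyc07g062600 was at 2177, 2177, 2247 and 1963 in the WT libraries (4 leaves A and B, then 6 leaves A and B) and at 2449, 2296, 2594 and 2413 in the ltm libraries in the same order, a mean log2 difference of 0.19 ± 0.08. Solyc07g063130 was at 2577, 2798, 2888 and 2823 in WT and at 3019, 3207, 3262 and 3095 in ltm, a difference of 0.18 ± 0.07. In both of these members the lowest ltm library lay close above the highest WT library.

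Solyc07g063330 was at 743, 793.5, 824.5 and 813.2 in WT and at 840.6, 863.1, 903.8 and 848.7 in ltm, a mean log2 difference of 0.12 ± 0.07. Solyc07g062750 was at 239.4, 243.3, 248.9 and 233.3 in WT and at 257.9, 252.8, 260.2 and 262.9 in ltm, a difference of 0.10 ± 0.09. Solyc07g063570 was the one with lower values in ltm, at 413.98, 429.1, 424.2 and 463.2 in WT and at 374.6, 401.8, 391.8 and 413.88 in ltm, a difference of -0.13 ± 0.09. Its highest ltm value was just under its lowest WT value, and with TMM scaling the genotypes of this member overlapped.

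At 4 leaves alone, the 2 ltm libraries lay outside the 2 WT libraries in 38 members (30.4%, against 23.7% of all tested genes). At 6 leaves this held for 54 members (43.2%, against 44.4%). In 5 of the 125 members the ltm libraries were outside WT at both stages but on opposite sides, against 1.57% of all tested genes. The median log2 difference of the members was 0.031 at 4 leaves and 0.030 at 6 leaves, and over all tested genes it was -0.0020 and -0.0054. The direction of the members' median at each stage turned when 1 library was left out. It was -0.023 at 4 leaves without ltm 4 leaves B. At 6 leaves it was -0.0063 without WT 6 leaves B and -0.0044 without ltm 6 leaves A.

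The 10 members nearest to GOB had a higher median size of difference than the rest. They hold the 4 that the segment was chosen for, so this restates that choice. The others of the 10 had mean differences of -0.16 to 0.22. The median absolute value, taken on the mean of both stages, was 0.19 in the 10 members nearest to GOB, 0.12 in the 30 members at positions 6 to 20 on either side, 0.10 in the 40 at positions 21 to 40 and 0.08 in the 45 farther out. Over all tested genes it was 0.12. At 4 leaves alone the medians in the same order were 0.21, 0.10, 0.10 and 0.12, and at 6 leaves 0.32, 0.16, 0.11 and 0.14, so beyond the nearest 10 members they did not decline steadily with distance at either stage. Outside the nearest 10 members the mean difference ranged from -0.75 to 0.53, and in 91 of these 115 members it was below 0.2 in size. At single stages their range was wider, from -1.42 to 0.78 at 4 leaves and from -0.93 to 0.83 at 6 leaves.

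An absolute mean difference of at least 0.5 was found in 10 members (8%, against 6.87% of all tested genes). Besides the 4 next to GOB and Solyc07g062760 these were Solyc07g062140, Solyc07g063020, Solyc07g063180, Solyc07g063320 and Solyc07g063640, named for this size, all with lower values in ltm. Solyc07g062140 was the only abundant one of the 5, at 1795 to 2885 in WT and 1143 to 2062 in ltm. The other 4 had values between 3.05 and 137, and in all 5 the genotypes overlapped over the 8 libraries.

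The summed value of the members was 110737 to 112731 in WT and 113212 to 116982 in ltm, ranges that lie close but do not overlap. As a share of all values of a library, however, it was 0.546% to 0.561% in WT and 0.554% to 0.585% in ltm, and these ranges overlap. The 4 members next to GOB summed to 1137 to 1334 in WT and 2006 to 2430 in ltm. The remaining members summed to 109600 to 111538 in WT and 110920 to 114789 in ltm, ranges that overlap.

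**Figure D3:**
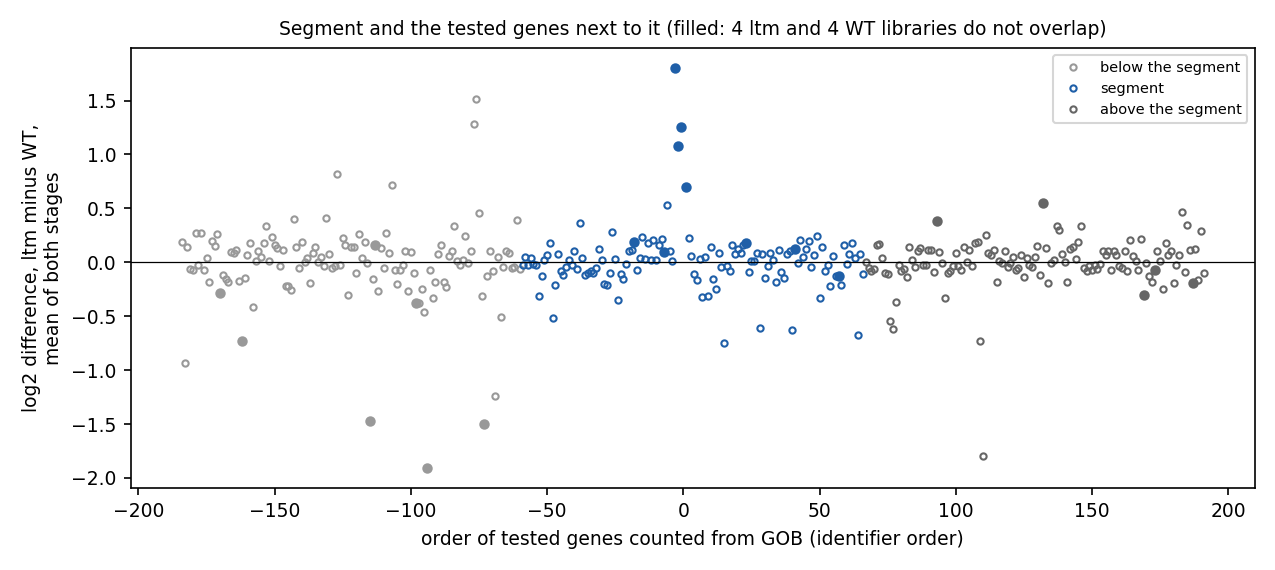
Mean log2 difference of ltm from WT over both stages (vertical axis) for the members (blue) and for the 125 tested genes next below and next above the segment (grey), in identifier order counted from GOB (horizontal axis); filled points have 4 ltm libraries that do not overlap the 4 WT libraries. The filled blue points beside GOB, for which the segment was chosen, are neighbours. No filled grey point has a filled neighbour on the same side of 0, and such neighbours were rare over all tested genes.

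Among the genes beside the segment, those whose genotypes did not overlap formed no neighbouring pair of the same direction. Such pairs were rare over the genome as well, as counted below, so nothing is read from their absence here. Of the 125 tested genes next below it, 7 had ltm and WT libraries that did not overlap, 1 higher and 6 lower in ltm, and of the 125 next above it 5 did, 2 higher and 3 lower. Large differences occurred there too, such as Solyc07g056440 with -1.91 and Solyc07g064380 with -1.80. Solyc07g056670 and Solyc07g061720 were at 1.28 and 1.51, and in both the genotypes overlapped. They follow each other among the tested identifiers, with a wide break between their numbers. Taken over the genome, 58 runs of 2 neighbouring tested genes with every ltm library on the same side were found, 7 runs of 3, 1 of 4 and 1 of 5. The run of 5 was the one around GOB, and the run of 4 reached from Solyc01g100590 to Solyc01g100620 on chromosome 1. Solyc07g062790, which passed the filter through ltm libraries alone, is part of the run of 5, and without it that run has 4 genes, as many as the one on chromosome 1. These counts describe the pattern that the segment was chosen for.

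In limma, adjusted over all 19186 tested genes, 0 members were called for ltm against WT at 4 leaves or at 6 leaves (0.00521% of all tested genes at each stage), with 6 and 8 members at an unadjusted p under 0.05 (2.91% and 6.45%). For the mean of both stages, 1 member was called, Solyc07g062820 (0.0417% of all tested genes), with 9 members at an unadjusted p under 0.05 (8.58%), and edgeR called the same member (0.0365%). DESeq2 called Solyc07g062810 and Solyc07g062820 at 4 leaves (0.099%), Solyc07g062820 and Solyc07g062850 at 6 leaves (0.188%), and all 3 for the mean of both stages (0.756%). Without ltm 4 leaves B limma called the same member, without WT 4 leaves B it called Solyc07g062810, and without any other 1 library it called 0 members. The mean log2 difference of Solyc07g062820 stayed between 1.18 and 1.33 when single libraries were omitted. Nothing is read from these counts, since this contrast was used to choose the segment. Use of strand in counting is unknown here, so reads of overlapping or antisense genes cannot be told apart, and the positions of these neighbours were not used here.

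No change with leaf number was detected in the members next to GOB. From 4 to 6 leaves Solyc07g062820 differed by -0.11 ± 0.16 in WT and -0.03 ± 0.16 in ltm, Solyc07g062810 by -0.08 ± 0.20 and -0.36 ± 0.20, and Solyc07g062850 by 0.02 ± 0.17 and 0.28 ± 0.17. In limma the adjusted p over all genes was between 0.863 and 0.982 in WT for these 3 members, and 0.9998 in ltm. The ltm against WT difference at 6 leaves less that at 4 leaves was 0.09 ± 0.23 for Solyc07g062820, -0.28 ± 0.28 for Solyc07g062810, 0.26 ± 0.24 for Solyc07g062850 and 0.07 ± 0.95 for Solyc07g062790 (limma interaction, adjusted p = 0.9999 for each). With 2 libraries per group, differences of the size of these errors could not be resolved.

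Among all members, 0 were called between 6 and 4 leaves in WT, in ltm, or for the difference between the genotypes' stage changes, by limma (0% of all tested genes in each) and by edgeR (0% in each). DESeq2 also called 0 members, with 0.0573%, 0.0208% and 0% of all tested genes. At an unadjusted p under 0.05 in limma there were 8 members in WT, 6 higher and 2 lower at 6 leaves (6.40%, against 6.04% of all tested genes), 5 in ltm (4%, against 3.19%) and 2 for the interaction (1.6%, against 0.719%). The WT libraries of the stages did not overlap in 53 of the 125 members, against 41.9% of all tested genes. The ltm libraries did not overlap in 32 of the 125, against 27.2% of all tested genes.

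**Figure D4:**
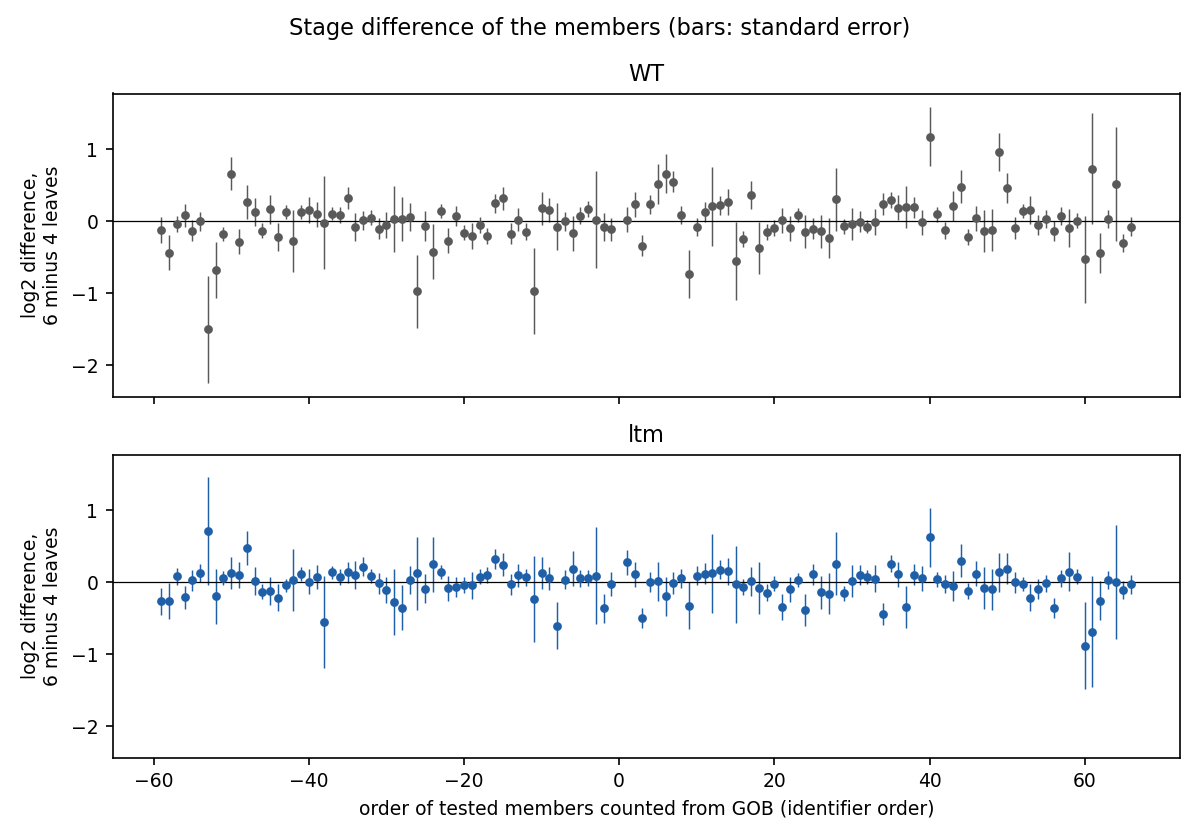
Log2 difference between 6 and 4 leaves (vertical axes) in WT (upper panel) and ltm (lower panel) for the 125 members in identifier order counted from GOB (horizontal axis); bars are standard errors. Of the members beside GOB, Solyc07g062820 lies near 0 in both panels, at -0.11 and -0.03, while in ltm Solyc07g062810 is at -0.36, Solyc07g062850 at 0.28 and Solyc07g062870 at -0.50.

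The largest stage differences had wide errors. In WT, Solyc07g062090 was at 41.1 and 10.4 at 4 leaves and at 4.98 and 9.06 at 6 leaves (-1.50 ± 0.74, adjusted p = 0.727 in limma), and 1 library, WT 4 leaves A, was far above the rest. Solyc07g063320 was at 15.5 and 16.7 at 4 leaves and at 31.9 and 44.2 at 6 leaves (1.17 ± 0.41, adjusted p = 0.727 in limma), with both libraries of 6 leaves above both of 4 leaves. In ltm its libraries were at 15.2 and 10.1 and then at 16.1 and 24.0, a difference of 0.62 ± 0.41.

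Solyc07g062500 had close A and B values in WT at each stage, at 78.6 and 79.3 at 4 leaves and 40.8 and 38.5 at 6 leaves (-0.98 ± 0.50, adjusted p = 0.727 in limma). In ltm it was at 35.5 and 119.8 at 4 leaves and at 88.01 and 57.98 at 6 leaves, so the A and B libraries of ltm at 4 leaves differed more than the stages of WT. In ltm the widest differences were those of Solyc07g063600, at 111.7 and 515.6 against 142.9 and 118.97 (-0.88 ± 0.60, adjusted p = 0.9998 in limma), of Solyc07g062090, at 5.08 and 10.1 against 8.52 and 17.99 (0.71 ± 0.74), and of Solyc07g063610, at 10.2 and 51.4 against 15.1 and 12.996 (-0.69 ± 0.77). The neighbours Solyc07g063600 and Solyc07g063610 were high in ltm 4 leaves B alone, and Solyc07g063600 was also at 279.8 in WT 4 leaves B against 140.4 to 166.3 in the other WT libraries. Solyc07g063610 had its lowest value, 7.31, in WT 4 leaves B. The 4 leaves B libraries are those that stood apart on the first principal component.

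Expression along the segment covered a wide range. The mean over the 8 libraries went from 6.07 to 7436, with a median of 427.6, where the median over all tested genes was 409.2. All 8 libraries reached the value of 10 in 118 members and the value of 100 in 99. Besides Solyc07g062790, Solyc07g062280 passed the filter through ltm libraries alone, at 17.1 in ltm 4 leaves B and 10.997 in ltm 6 leaves B, and none passed through WT alone. These 2 were also the members closest to the threshold, with a second highest value of 10.4 and 10.997, and the closest identifiers below it were Solyc07g062510 at 7.11 and Solyc07g062220 at 6.97. The segment began with Solyc07g062030, at -0.02 ± 0.13, and ended with Solyc07g063680, at -0.11 ± 0.09, both as mean log2 differences of ltm from WT.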

How the data were processed

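The authors deposited one table that holds a signal value for each gene in each library, namely its read count over a library size factor. The submitters' processing notes list TopHat2 2.0.10, HTSeq 0.6.1p1 and also DESeq2 1.6.3, and no genome build is given in the sources used here. All values (100%, tolerance 1e-06) were whole numbers of reads after rescaling, so reads could be recovered. Columns were matched to samples by description.

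The 19186 genes with 10 or more in 2 or more libraries were analysed as log2(value + 1) with limma 3.58.1 in R 4.3.3, using a mean-variance trend, 1 mean for each of the 4 groups, and Benjamini-Hochberg adjustment over all genes with a threshold of 0.05. The recovered reads went through edgeR 4.0.16, then DESeq2 1.42.0, as alternatives. All were run on simulated data with 1 dispersion for all genes and no deviation shared between libraries of the same letter. The real libraries are less simple, so that run does not measure how the fits perform on them. Read totals were 17895357 to 21987881 per library, and intervals cover counting error only.

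The members and lists were chosen with earlier results of these data known. Members were named by rule: libraries of the genotypes that do not overlap, the 5 nearest to GOB on each side, any call, the 3 largest stage differences per genotype, and both ends. Those named otherwise are marked. No sequences or positions were used.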

Additional observations from a re-analysis of the deposited data

Results flagged for a closer look

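In 5 of the 125 members the ltm libraries lay on one side of the WT libraries at 4 leaves and on the other side at 6 leaves. They were picked out by this pattern, and the difference between the stages was then taken from the limma interaction, in which none passed (adjusted p = 0.9999 for each). Over all tested genes the pattern occurred in 1.57%. The change in the ltm against WT log2 difference from 4 to 6 leaves was 0.24 in Solyc07g062110, -0.53 in Solyc07g062120, -0.86 in Solyc07g062900, -0.36 in Solyc07g063110 and -0.67 in Solyc07g063250. Solyc07g063250 was at 337.2 and 330.96 in WT against 340.1 and 405.9 in ltm at 4 leaves, and at 359.5 and 429.2 against 259.3 and 289.9 at 6 leaves.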

How the results depend on the processing

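The mean differences of the 22 named members moved by less than the replicate spread in 366 alternative values, and the exception was Solyc07g062790, at 1.05 with a pseudocount of 5. The replicate spread is the residual standard deviation of the member. By construction, leaving out 1 library or both 4 leaves B libraries cannot move a mean difference past it. The replicate block and the changed filters leave the limma difference as it was. For all these alternatives the count is therefore no sign of stability. The direction turned under at least 1 alternative in 8 of the 22, namely Solyc07g062030, Solyc07g062090, Solyc07g062500, Solyc07g062780, Solyc07g062870, Solyc07g062890, Solyc07g063600 and Solyc07g063610. DESeq2 on the recovered reads called 2 members at 4 leaves, 2 at 6 leaves and 3 for the mean of both stages, against 0, 0 and 1 in limma. Without single libraries the number called for the mean was 0 to 1, the number with genotypes that do not overlap 10 to 14, the share of flanking genes of that kind 5.71% to 11.5% against 4.29% with all 8, and the median difference -0.023 to 0.068 at 4 leaves and -0.0063 to 0.038 at 6 leaves. Flanking genes here are 17 tested genes below the segment, Solyc07g061720 to Solyc07g061990, and 123 above it, Solyc07g063740 to Solyc07g065400, so most lie on 1 side. Without both 4 leaves B libraries the number that do not overlap was 21 and the flanking share 19.1%, and limma called Solyc07g062810 in place of Solyc07g062820. Fewer libraries overlap less often by construction. No member was called for leaf number or the interaction in any alternative.

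With the letter as a replicate block, the members called were 0, 0 and 1 for the ltm against WT contrasts, as without it, and the calls over all genes for the mean went from 8 to 20. Members at an unadjusted p under 0.05 went from 6 to 8 at 4 leaves, 8 to 13 at 6 leaves, 9 to 17 for the mean, 8 to 13 for the WT stage change and 2 to 3 for the interaction, and stayed at 5 for the ltm stage change. The A libraries' deviations correlated across genes at 0.129 to 0.522 between groups, but each comparison has 2 pairs, so the letters were not taken to pair the libraries. The flanking share over as many tested genes as members on each side, chosen after seeing the data, was 4.80%. Solyc07g062790, with 9 reads in WT, is limited by counting. The fits on recovered reads and with the block gave no value for the overlaps and medians.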

Other observations

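Solyc07g062910, named after its values were seen, had higher values at 6 leaves in WT and level values in ltm. It was at 216.6 and 231.8 in WT at 4 leaves and at 298.7 and 361.3 at 6 leaves (0.55 ± 0.15, unadjusted p = 0.00659 and adjusted p = 0.727 in limma). In ltm it was at 211.2 and 223.6 and then at 213.9 and 217.9 (-0.01 ± 0.15). The difference between these stage changes, ltm less WT, was -0.56 ± 0.21 and did not pass (limma interaction, unadjusted p = 0.0309 and adjusted p = 0.9999).

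Solyc07g062870, the third member above GOB, had lower values at 6 than at 4 leaves in both genotypes, at -0.34 ± 0.14 in WT and -0.50 ± 0.14 in ltm, with adjusted p = 0.727 and 0.9998 in limma.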
